A study of Oryza sativa with 24 samples.

Results

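Abscisic acid is the plant hormone of drought, cold and seed dormancy, and its level in a cell is set by the balance of synthesis and breakdown. OsABA1, a zeaxanthin epoxidase, makes the carotenoid precursors in the plastid. The 9-cis-epoxycarotenoid dioxygenases (NCED) then cut these precursors, which is the committed and usually limiting step. The ABA 8'-hydroxylases (ABA8ox, cytochromes P450 of the CYP707A family) start the main route of breakdown. In rice anthers the hormone has been studied in connection with cold-induced failure of pollen. The 8 genes described here were taken by identifier out of 37910 identifiers in the tables. Those of synthesis are OsNCED3 (Os03g0645900), NCED1 (Os02g0704000), NCED4 (Os07g0154100), NCED5 (Os12g0617400) and OsABA1 (Os04g0448900). Those of breakdown are OsABA8ox1 (Os02g0703600), OsABA8ox2 (Os08g0472800) and OsABA8ox3 (Os09g0457100).

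The RNA came from anthers of 4 rice lines, Nipponbare, Sasanishiki, PL9 and Lambayeque1, at the booting stage, and was sequenced as 24 libraries. In each line 3 libraries came from plants held at 12 °C for 4 days, beginning around the early microspore stage, and 3 from plants without this treatment. All plants shared greenhouse growth at 25 °C (day) and 19 °C (night), with 20 plants in each pot and main stems alone kept. The labels number 3 libraries per group while the design text speaks of a pair of replicates, and separate plants are not mentioned. The p-values therefore describe spread among these libraries, which may be technical. When untreated anthers were collected relative to the end of the cold is not stated.

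The deposited values are named TPM, an abundance per transcript length, and are printed here as deposited. Read counts were not among the values used here, and sequencing depth is unknown. Each library had 22367 to 24281 identifiers at 1 or more. Library 2 of cold-treated PL9 had the lowest median correlation with its own group (0.901), and libraries 1 and 3 of that group had 0.915 and 0.947, while libraries of the other groups had 0.935 to 0.978. The stamen identity genes OsMADS2, OsMADS3, OsMADS4 and OsMADS16 and 7 marker genes of the tapetum, the layer that nourishes the pollen, were above 0 in at least 1 library of every group. The summed level of the 7 tapetum markers was 36200 to 107000 in cold-treated libraries and 4880 to 18500 in untreated ones. The summed level of 6 carpel and outer floret markers was 66.3 to 96.6 in cold-treated libraries, against 68.4 to 138 in untreated ones. Within each line the tapetum sums of the treatments did not overlap. The carpel and floret sums separated in 2 lines, with 76.7 to 84.8 in cold-treated and 108 to 118 in untreated Nipponbare, and 77.2 to 84.7 in cold-treated and 116 to 138 in untreated Lambayeque1. The sums of the 4 stamen genes were lower after cold without overlap in the same lines. They were 2600 to 2990 in cold-treated and 3210 to 3610 in untreated Nipponbare, and 2340 to 3120 in cold-treated and 3420 to 4690 in untreated Lambayeque1. In PL9 the stamen sums also separated, but were higher after cold, at 2530 to 2710 against 1840 to 2500 untreated. The part of these marker lists in the results below was not tested. In whole anthers, fewer cells of a type and less RNA per cell cannot be told apart.

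Breakdown transcripts had higher median levels than those of the NCED step. OsABA8ox2 had a median value of 59.5 over the 12 cold-treated libraries and 173 over the 12 untreated ones. OsABA8ox3 had medians of 4.37 in cold-treated and 47.7 in untreated libraries, and OsABA1 had medians of 13.2 in cold-treated and 23.1 in untreated libraries. OsABA8ox1 had medians of 2.93 in cold-treated and 5.17 in untreated libraries. The NCED genes stood lowest, with medians in cold-treated and untreated libraries of 0.848 and 2.03 for NCED5, 0.256 and 2.36 for OsNCED3, 0 and 0.648 for NCED4, and 0.128 and 0.0629 for NCED1. NCED1 never reached 1 in any library, with a range of 0 to 0.275 in cold-treated and 0 to 0.35 in untreated libraries.

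**Figure D1:**
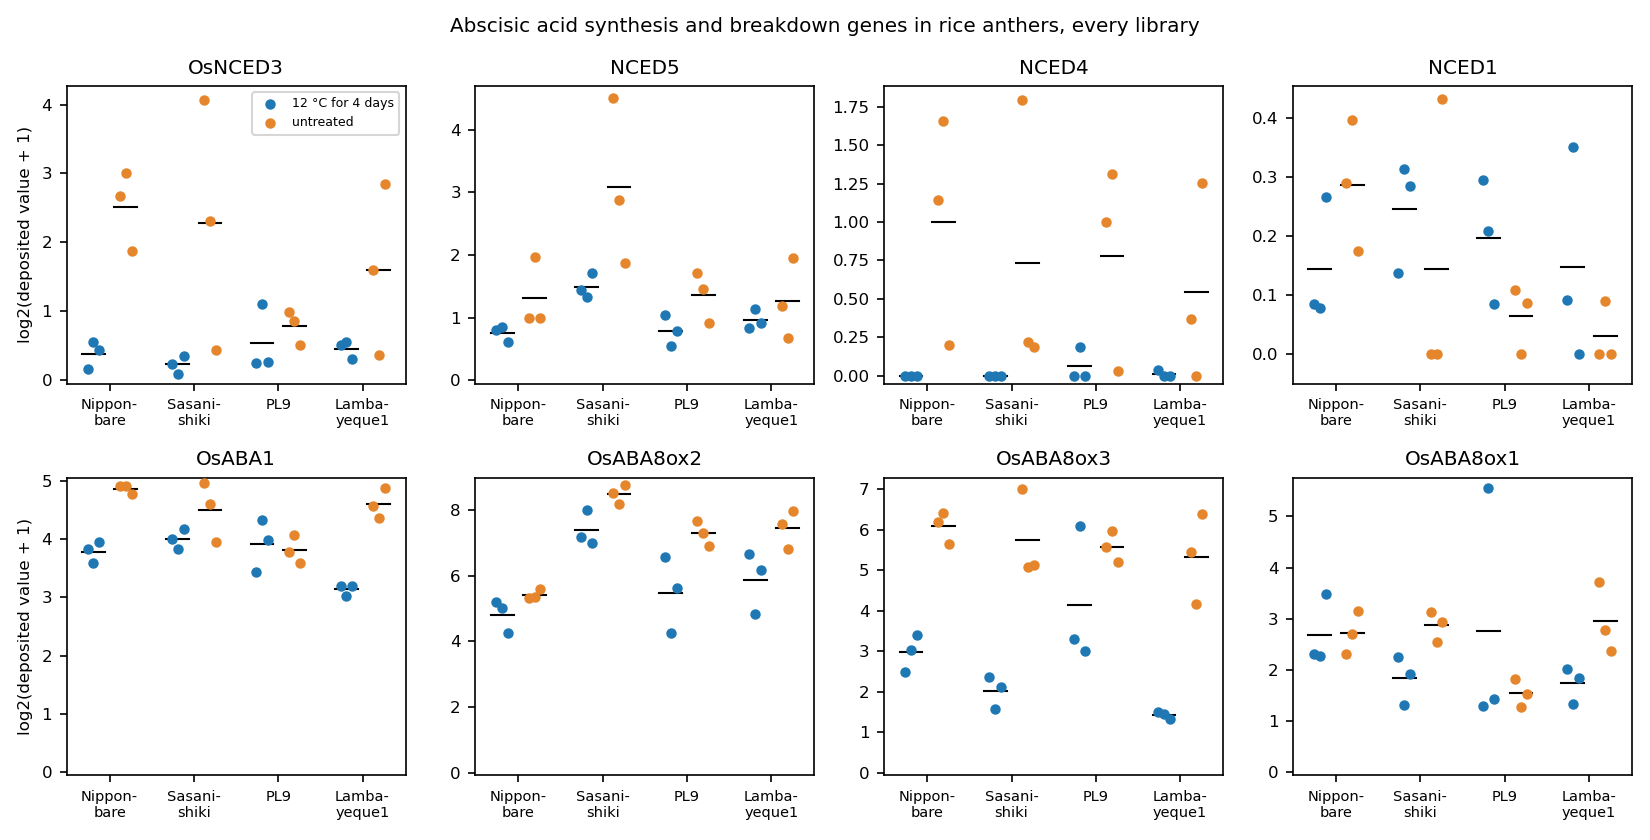
Each panel shows 1 gene. Points are libraries on a log2(deposited value + 1) axis, blue for 12 °C for 4 days and orange for untreated, with 3 libraries per group and black bars at the mean of the transformed values. OsABA8ox2 lies lower after cold in every line without overlap, while library 2 of cold-treated PL9 stands far above its group in OsABA8ox3 and OsABA8ox1.

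The change with cold was tested on log2(value + 1) with limma over 27655 identifiers that reached 1 in at least 3 libraries, with Benjamini-Hochberg adjustment and a threshold of 0.05. Averaged over the 4 lines, 6 of the 8 genes passed with a lower value, OsABA8ox1 did not pass the test, and NCED1 was too low to be tested. Over all tested identifiers 25.6% fell in that comparison, and the median log2 difference was 0. NCED4 reached 1 in 6 libraries, all of them untreated, so it entered the test only through the group in which it was high and had to differ. OsNCED3 reached 1 in 1 cold-treated and 7 untreated libraries. The count of 6 is therefore given as a description. The 8 genes were chosen with earlier results of these data known, and their direction is not independent evidence.

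OsABA8ox3, a hydroxylase of breakdown, had the largest average difference of the 7 tested genes on log2(value + 1), a scale that shrinks changes of low genes. Its values were 4.57, 7.19 and 9.57 in cold-treated Nipponbare, against 72, 84 and 49.1 in untreated Nipponbare. They were 4.17, 2 and 3.36 in cold-treated Sasanishiki, against 127, 32.7 and 34 in untreated Sasanishiki. They were 1.82, 1.73 and 1.5 in cold-treated Lambayeque1, against 42.4, 16.8 and 82.2 in untreated Lambayeque1. In these 3 lines no cold-treated library came near an untreated one. In PL9 the cold-treated libraries held 8.92, 67.1 and 7.1, against 46.3, 61.7 and 35.9 in untreated ones, so library 2 lay above the whole untreated group and the other two far below it. The average log2 difference was -3.04 (SE 0.33, adjusted p = 4.02e-07, n = 12 in each treatment, limma). By line, OsABA8ox3 fell in Nipponbare (-3.11, adjusted p = 0.0016), in Sasanishiki (-3.71, adjusted p = 4.61e-04) and in Lambayeque1 (-3.9, adjusted p = 3.04e-04, limma). In PL9 the difference was -1.44 (SE 0.65, limma adjusted p = 0.137) and did not pass; without library 2 of the cold-treated group, OsABA8ox3 fell by 2.42 (adjusted p = 0.00898).

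OsABA8ox2, the most abundant hydroxylase gene except in untreated Nipponbare and in library 2 of cold-treated PL9, separated the treatments without overlap in each line. Its values were 35.4, 31.1 and 18.1 in cold-treated Nipponbare, against 38.6, 39.7 and 47.3 in untreated Nipponbare. They were 143, 254 and 126 in cold-treated Sasanishiki, against 362, 286 and 429 in untreated Sasanishiki. Nipponbare had the lowest mean level and Sasanishiki the highest, under either condition. In PL9 they were 93.7, 18 and 48.5 after cold, against 199, 157 and 118 untreated. In Lambayeque1 they were 99, 27.4 and 70.4 after cold, against 189, 110 and 248 untreated. The average log2 difference of OsABA8ox2 was -1.26 (SE 0.25, adjusted p = 2.86e-04, n = 12 in each treatment, limma). It fell in PL9 (-1.8, adjusted p = 0.0172) and in Lambayeque1 (-1.57, adjusted p = 0.0264, limma). The differences of -0.6 in Nipponbare (adjusted p = 0.394) and -1.09 in Sasanishiki (adjusted p = 0.113) did not pass. Library 2 of cold-treated PL9 was the lowest of its group here, and without it the PL9 difference was -1.18 (adjusted p = 0.116); without untreated library 1 or 2 the adjusted p was 0.0802 or 0.0512. Without cold-treated library 2 of Lambayeque1 that line's difference was -1.04 (adjusted p = 0.163), and without untreated library 1 or 3 the adjusted p was 0.0693 or 0.109 (limma). Fitted with only the libraries of the line, neither PL9 (adjusted p = 0.135) nor Lambayeque1 (adjusted p = 0.0831) passed.

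OsABA8ox1, the remaining hydroxylase gene, stands on 2 rows in the tables and its values were read back from these. In cold-treated Nipponbare it held 3.98, 3.82 and 10.2, against 3.94, 5.54 and 7.93 in untreated Nipponbare, which overlap. In cold-treated Sasanishiki it held 3.78, 1.5 and 2.8, against 7.77, 4.81 and 6.71 in untreated Sasanishiki. In cold-treated Lambayeque1 it held 3.06, 1.54 and 2.61, against 12.1, 5.88 and 4.17 in untreated Lambayeque1. In both of these lines the cold-treated libraries lay below the untreated ones. In PL9 it held 1.47, 45.7 and 1.7 after cold, against 2.54, 1.41 and 1.91 untreated. The value of 45.7 in library 2 of cold-treated PL9 was the highest of all 24 libraries. The average log2 difference of OsABA8ox1 was -0.27 (SE 0.36, 95% interval -1.03 to 0.5, adjusted p = 0.567, limma) and did not pass. Without that library it was -0.61 and passed (adjusted p = 0.0104), and no single line passed with all libraries.

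**Figure D2:**
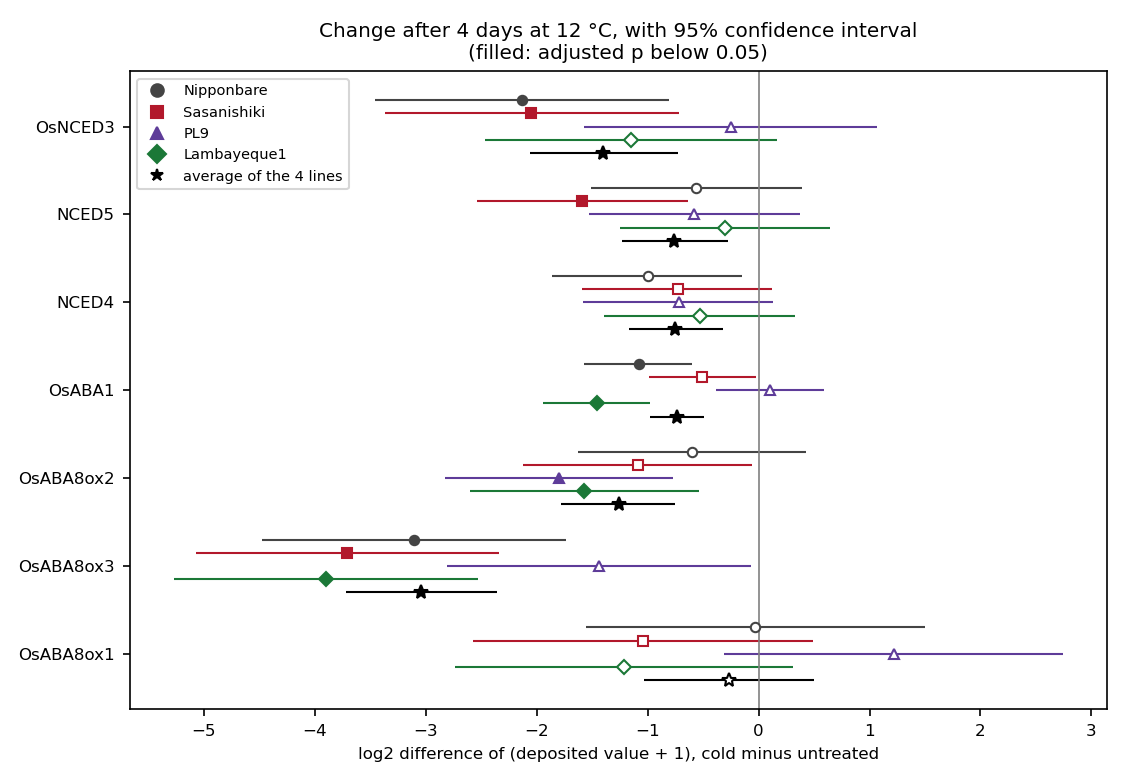
Log2 difference of (deposited value + 1), cold minus untreated, with 95% confidence intervals, for the 7 tested genes in each line (n = 3 in each group) and averaged over the 4 lines (n = 12 in each treatment). Filled symbols passed the adjusted threshold of 0.05; the average of OsABA8ox3, at -3.04, lies farthest from 0 and that of OsABA8ox1, at -0.27, nearest.

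OsNCED3, a dioxygenase gene of the limiting step of synthesis, was near the bottom of the scale after cold. It held 0.121, 0.468 and 0.35 in cold-treated Nipponbare, against 5.35, 7.06 and 2.67 in untreated Nipponbare. It held 0.176, 0.0679 and 0.275 in cold-treated Sasanishiki, against 15.8, 3.98 and 0.354 in untreated Sasanishiki. The treatments did not overlap in either line, although untreated Sasanishiki library 3 came close. In Lambayeque1 it held 0.42, 0.46 and 0.236 after cold, against 2.04, 0.281 and 6.2 untreated. In PL9 it held 0.182, 1.15 and 0.194 after cold, against 0.989, 0.815 and 0.418 untreated. In both of these lines the treatments overlapped, and untreated PL9 was already low. The average log2 difference was -1.4 (SE 0.32, adjusted p = 0.00111, limma), and on log2(value + 0.1), which shrinks low values less, it was -2.47. OsNCED3 fell in Nipponbare (-2.13, adjusted p = 0.0165) and in Sasanishiki (-2.05, adjusted p = 0.0221, limma). It did not pass in Lambayeque1 (-1.15, adjusted p = 0.201) or PL9 (-0.25, 95% interval -1.57 to 1.07, adjusted p = 0.836, limma). Untreated libraries alone sufficed for the entry of OsNCED3 to the test (7 at 1 or more, against 1 cold-treated). The calls in Nipponbare and Sasanishiki are therefore a description. Neither call held throughout. Without untreated library 1 of Sasanishiki the difference was -1.15 (adjusted p = 0.172), and without untreated library 2 or cold-treated library 1 or 2 the adjusted p was 0.05 to 0.0569. In Nipponbare it was 0.0541, 0.0671 or 0.0553 without untreated library 1, untreated library 2 or cold-treated library 1 (limma).

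NCED5, of the same family, had its highest values in untreated Sasanishiki. It held 1.71, 1.51 and 2.28 in cold-treated Sasanishiki, against 21.6, 6.36 and 2.65 in untreated Sasanishiki. It held 0.74, 0.801 and 0.526 in cold-treated Nipponbare, against 0.993, 2.9 and 0.983 in untreated Nipponbare. Neither line showed overlap. In PL9 it held 1.05, 0.461 and 0.717 after cold, against 2.29, 1.76 and 0.884 untreated, and in Lambayeque1 0.78, 1.21 and 0.895 after cold, against 1.28, 0.599 and 2.86 untreated, with overlap in both. The average log2 difference was -0.76 (SE 0.23, adjusted p = 0.00885, limma). NCED5 fell by 1.59 in Sasanishiki (adjusted p = 0.0144), and without untreated library 1 of that line the difference was -0.88 (adjusted p = 0.109). The differences in Nipponbare, PL9 and Lambayeque1 were -0.56, -0.58 and -0.3 and did not pass.

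NCED4, also of this family, is listed at 0 in 10 of 12 cold-treated libraries and in 1 of 12 untreated ones. The cold-treated libraries above 0 were library 2 of PL9, at 0.137, and library 1 of Lambayeque1, at 0.0251. Untreated libraries held 1.21, 2.15 and 0.147 in Nipponbare, 2.47, 0.164 and 0.141 in Sasanishiki, 1, 1.48 and 0.0235 in PL9, and 0.293, 0 and 1.39 in Lambayeque1. Each untreated group thus held at least 1 library above 1 and at least 1 far below it. The average log2 difference was -0.75 (SE 0.2, adjusted p = 0.00487, limma), and no single line passed. Since NCED4 entered the test only through untreated libraries, this difference is a description. On log2(value + 0.1) the average was -2.41, and Nipponbare passed (-3.17, adjusted p = 0.0327, limma). Without untreated library 3, Nipponbare also passed (-1.4, adjusted p = 0.0202). NCED1, the lowest of the family in untreated libraries, held 0.0612, 0.0561 and 0.203 in cold-treated Nipponbare, against 0.223, 0.316 and 0.129 in untreated Nipponbare. In the other lines its values were 0 to 0.275 after cold and 0 to 0.35 untreated, and treatments overlapped in every line.

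OsABA1, the zeaxanthin epoxidase gene, fell in 2 of the 4 lines. It held 13.2, 11 and 14.4 in cold-treated Nipponbare, against 29.1, 29.3 and 26.5 in untreated Nipponbare. It held 8.19, 7.13 and 8.22 in cold-treated Lambayeque1, against 22.8, 19.5 and 28.4 in untreated Lambayeque1. The treatments stood far apart in both of these lines. It held 15, 13.2 and 17.1 in cold-treated Sasanishiki, against 30.2, 23.4 and 14.5 in untreated Sasanishiki, where untreated library 3 lay among the cold-treated ones. It held 9.84, 19 and 14.8 in cold-treated PL9, against 12.7, 15.8 and 11 in untreated PL9, with full overlap. OsABA1 fell in Nipponbare (-1.08, adjusted p = 0.00181) and in Lambayeque1 (-1.46, adjusted p = 1.78e-04, limma). The differences of -0.51 in Sasanishiki (adjusted p = 0.117) and 0.1 in PL9 (95% interval -0.38 to 0.59, adjusted p = 0.811, limma) did not pass. Nipponbare and Lambayeque1 were also the lines in which the stamen and the carpel and floret marker sums were lower after cold without overlap. In PL9 the stamen sums were higher after cold without overlap, at 2530 to 2710 against 1840 to 2500 untreated. The part of these sums in the result was not tested. Without untreated library 3, Sasanishiki passed (-0.78, adjusted p = 0.0129). The average was -0.74 (SE 0.12, adjusted p = 3.17e-05, n = 12 in each treatment).

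Counted by line, 3 of the 8 genes fell in Nipponbare, where 14.8% of all tested identifiers fell. In Sasanishiki 3 fell, against 13.1% of all tested. In PL9 1 fell, against 8.24%, and in Lambayeque1 3 fell, against 12.1%. Counted without a test, all 3 cold-treated libraries lay below all untreated ones for 6 of the 8 genes in Nipponbare (22.2% of all tested identifiers), 6 in Sasanishiki (18.1%), 1 in PL9 (17.9%) and 4 in Lambayeque1 (20.7%). The counts without a test for Nipponbare and Sasanishiki include NCED4, which is among the tested identifiers only through untreated libraries. Both kinds of count for these lines include OsNCED3, for which untreated libraries alone sufficed for entry. NCED1 is among the 8 but not among the tested identifiers. OsABA8ox3 was called in Nipponbare, Sasanishiki and Lambayeque1, OsNCED3 in Nipponbare and Sasanishiki, OsABA1 in Nipponbare and Lambayeque1, OsABA8ox2 in PL9 and Lambayeque1, and NCED5 in Sasanishiki. A call in one line and not in another does not show that the lines differ, so the difference itself was tested for the 6 pairs of lines. Of 42 such tests on the 7 tested genes, 2 passed (4.76%), beside 2.77% over all identifiers. Both concerned OsABA1 in PL9. Its response in PL9 exceeded that in Nipponbare by 1.19 (SE 0.33, adjusted p = 0.0439), and the response in Lambayeque1 minus that in PL9 was -1.56 (SE 0.33, adjusted p = 0.026, limma). Without library 2 of cold-treated PL9 these differences were 0.98 (adjusted p = 0.112) and -1.36 (adjusted p = 0.0573) and did not pass. Leaving out any 1 library of the lines compared ended the first call in 10 of 12 cases and the second in 7 of 12.

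Among untreated lines, 10 of 42 tests passed (23.8%), near the 24.7% over all identifiers. OsABA8ox2 averaged 359 ± 71.8 in Sasanishiki, 158 ± 40.4 in PL9 and 182 ± 68.9 in Lambayeque1, against 41.9 ± 4.73 in Nipponbare (SD, n = 3 each). It was higher than in Nipponbare by log2 3.06 in Sasanishiki (adjusted p = 6.31e-05), by 1.86 in PL9 (adjusted p = 0.00751) and by 2.03 in Lambayeque1 (adjusted p = 0.0145, limma). Without library 1 or 3 of untreated Lambayeque1 or library 1 of untreated Nipponbare, the adjusted p of the last was 0.0514, 0.0744 or 0.0588. NCED5 was higher in untreated Sasanishiki than in untreated Nipponbare by 1.77 (adjusted p = 0.0044). It was lower in PL9 than in Sasanishiki (-1.72, adjusted p = 0.00869) and lower in Lambayeque1 than in Sasanishiki (-1.81, adjusted p = 0.00454, limma). Without untreated Sasanishiki library 1 the difference of PL9 from Sasanishiki was -1.01 (adjusted p = 0.0677).

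Untreated PL9 was low in OsABA1, the epoxidase gene. It averaged 13.2 ± 2.43 in untreated PL9, against 28.3 ± 1.59 in untreated Nipponbare (SD, n = 3 each), a log2 difference of -1.06 (adjusted p = 0.00193). It was also below untreated Sasanishiki (-0.7, adjusted p = 0.0339), and untreated Lambayeque1 was above PL9 (0.79, adjusted p = 0.0282, limma). The call against Sasanishiki was lost when untreated PL9 library 1 or 3 or Sasanishiki library 1 or 2 was left out (adjusted p = 0.0871 to 0.211). That against Lambayeque1 was lost without untreated PL9 library 1 or 3 or Lambayeque1 library 1 or 3 (adjusted p = 0.0651 to 0.11). The untreated PL9 libraries, at 11 to 15.8, lay inside the range of the cold-treated libraries of all lines, 7.13 to 19. OsNCED3 averaged 0.741 ± 0.293 in untreated PL9, against 5.03 ± 2.21 in untreated Nipponbare (SD, n = 3 each). That difference of -1.73 passed (adjusted p = 0.0432, limma), and the call was lost (adjusted p = 0.0752 to 0.137) without any 1 of the untreated PL9 libraries or untreated Nipponbare library 1 or 2. It was also lost with pseudocounts of 0.1 (adjusted p = 0.0621) and 5 (adjusted p = 0.0711), with no filter (adjusted p = 0.0553) and with quantile normalization (adjusted p = 0.0526). OsNCED3 did not pass in untreated PL9 minus Sasanishiki (-1.49, adjusted p = 0.0999) or Lambayeque1 minus PL9 (0.82, adjusted p = 0.439, limma).

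Among cold-treated lines, 7 of 42 tests passed (16.7%), near the 14.9% over all identifiers. OsABA8ox2 was higher in cold-treated Sasanishiki than in cold-treated Nipponbare by 2.57 (adjusted p = 5.24e-04). It was lower in cold-treated PL9 and in cold-treated Lambayeque1 than in cold-treated Sasanishiki, with differences of -1.9 (adjusted p = 0.00908) and -1.51 (adjusted p = 0.0303, limma). Without cold-treated Sasanishiki library 2 their adjusted p was 0.0567 and 0.134, without PL9 library 2 that of PL9 was 0.0689, and without Sasanishiki library 1 or Lambayeque1 library 2 that of Lambayeque1 was 0.0525 or 0.176. OsABA1 was lower in cold-treated Lambayeque1, at 7.85 ± 0.622, than in cold-treated Sasanishiki, at 15.1 ± 1.96 (SD, n = 3 each), by -0.86 (adjusted p = 0.00942), and lower than in cold-treated PL9 (-0.77, adjusted p = 0.0491). The difference from PL9 was not called without Lambayeque1 library 1, 2 or 3 or PL9 library 2 or 3 (adjusted p = 0.103 to 0.17). OsABA8ox3 was higher in cold-treated PL9 than in cold-treated Sasanishiki (2.11, adjusted p = 0.0294), and lower in cold-treated Lambayeque1 than in cold-treated PL9 (-2.72, adjusted p = 0.0142). Without library 2 of cold-treated PL9 these 2 differences of OsABA8ox3 were 1.14 (adjusted p = 0.197) and -1.74 (adjusted p = 0.0572, limma). The first was also lost without cold-treated Sasanishiki library 2 or 3 (adjusted p = 0.107 or 0.0635), and the second without cold-treated Lambayeque1 library 3 (adjusted p = 0.0535).

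Ordered by mean level over the 8 groups, OsABA8ox2 ran from untreated Sasanishiki at the top to cold-treated Nipponbare, at 28.2 ± 9.02, at the bottom. Untreated Sasanishiki overlapped with no other group, whereas the values of cold-treated Nipponbare lay inside the range of cold-treated PL9. Neighbours in that order also stood apart between untreated PL9 and cold-treated Lambayeque1, and between cold-treated and untreated Nipponbare. OsABA8ox3 had its 4 untreated groups on top, at 47.1 to 68.4 on average, all overlapping. Cold-treated Nipponbare, Sasanishiki and Lambayeque1 followed cold-treated PL9 at averages of 7.11, 3.18 and 1.68, with no overlap between these 3. For OsNCED3, NCED4 and NCED1 every group overlapped its neighbour in the order. For NCED5 the only gap between neighbours lay between untreated Sasanishiki, at 10.2 on average, and cold-treated Sasanishiki, at 1.83. For OsABA1 it lay between cold-treated Nipponbare, at 12.9, and cold-treated Lambayeque1, at 7.85. For OsABA8ox1 it lay between untreated Nipponbare, at 5.8, and cold-treated Sasanishiki, at 2.69.

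Summed over each step, the NCED values came to 0.923 to 2.77 in cold-treated libraries, with a median of 1.4, and to 0.944 to 39.8 in untreated ones, with a median of 4.21. The ABA8ox values summed to 30.7 to 257 in cold-treated libraries (median 89.2) and to 104 to 497 in untreated ones (median 232). Both medians were thus lower after cold, and the ranges overlapped. The log2 ratio of the breakdown sum to the NCED sum, with 1 added to each, had medians of 5.14 in cold-treated and 5.16 in untreated libraries. By line the direction varied on this scale. The median ratio was 4.23 in cold-treated and 3.72 in untreated Nipponbare, and 5.67 in cold-treated and 4.82 in untreated Sasanishiki. It was 5.42 in cold-treated and 5.53 in untreated PL9, and 5.15 in cold-treated and 5.73 in untreated Lambayeque1. The added 1 is about the size of the lowest NCED sums (0.923) and small beside the ABA8ox sums (30.7 or more). It therefore lowers the ratio most where the NCED sum is low, as in most cold-treated libraries. The medians of the ratio depend on it, and the direction within a line can. These sums carry no test. The make-up of the breakdown sum differed. OsABA8ox2 supplied a median of 89.7% of it in cold-treated libraries and 74.9% in untreated ones, and OsABA8ox3 a median of 7.1% in cold-treated and 23.9% in untreated libraries. Library 2 of cold-treated PL9 had 13.8% from OsABA8ox2 and 51.3% from OsABA8ox3, and library 3 of cold-treated Nipponbare had 47.7% and 25.2%. In untreated Nipponbare OsABA8ox3 supplied 62.9%, 65% and 47%, the largest part in each library.

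**Figure D3:**
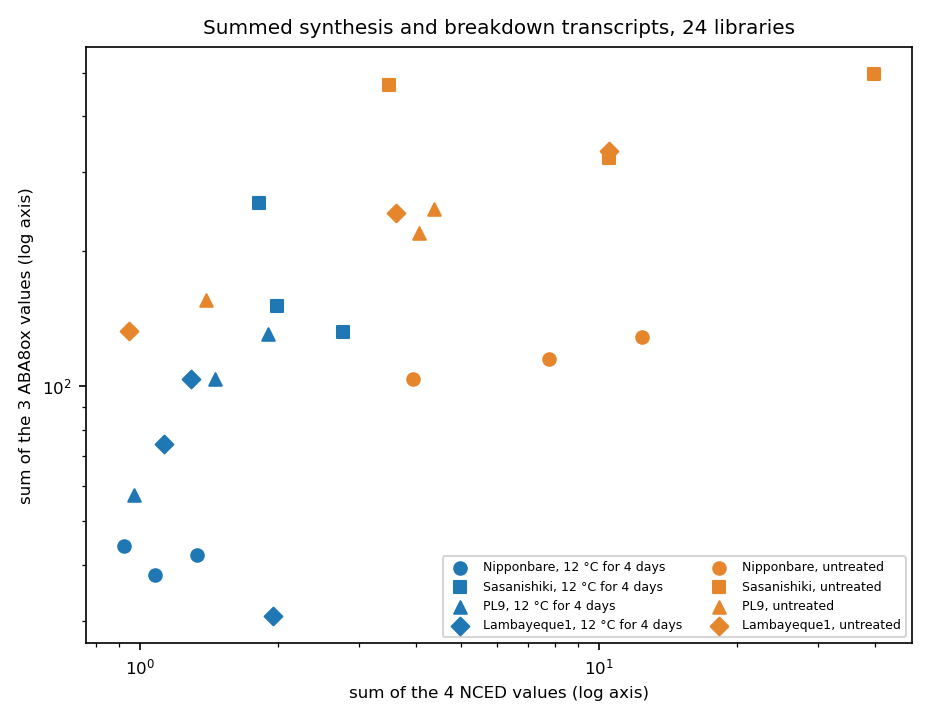
Each point is a library, with the sum of the 4 NCED values on the horizontal and the sum of the 3 ABA8ox values on the vertical log axis. Blue is 12 °C for 4 days, orange is untreated, and the marker shape gives the line. Cold-treated libraries span 0.923 to 2.77 on the horizontal axis and untreated ones 0.944 to 39.8; the untreated Nipponbare libraries are the lowest untreated ones on the vertical axis.

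Untreated libraries of a line differed widely, and several of the genes were high in the same library. In untreated Sasanishiki, library 1 had the highest value of OsNCED3, NCED4, NCED5 and OsABA8ox3. In untreated Nipponbare, library 2 had the highest value of these 4 genes, and in untreated Lambayeque1 library 3 did. In untreated PL9, library 1 was highest for OsNCED3 and NCED5, and library 2 for NCED4 and OsABA8ox3. The highest untreated values of OsABA8ox2 stood in library 3 of Nipponbare, of Sasanishiki and of Lambayeque1, and in library 1 of PL9.

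Some other identifiers followed these genes closely over the 24 libraries, by Pearson correlation of log2(value + 1), which the libraries' grouping by line and treatment also shapes. The files pair none of them with a name. For OsNCED3 the closest was Os04g0306400 (r = 0.96), which averaged 18.2 to 27.6 in cold-treated groups and 27.7 in untreated PL9, against 53.6 to 77.8 in the other untreated groups. For OsABA8ox2 it was Os11g0118300 (r = 0.954), for OsABA8ox3 Os02g0548700 (r = 0.937) and for NCED5 Os08g0512801 (r = 0.928). Os08g0512801 averaged 2.1 in untreated Sasanishiki and only 0 to 0.172 in the other groups, so its correlation rests largely on that group.

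The other genes listed for synthesis changed in both directions, as did tested identifiers at large. Of 20 other identifiers listed for hormone synthesis and its carotenoid precursors, 18 were tested. Averaged over lines 6 rose, 7 fell and 5 did not pass, with a median log2 difference of -0.03. Beside them, 25.8% of all tested identifiers rose and 25.6% fell, with a median of 0. PSY1, PSY2 and PSY3 encode phytoene synthases, the entry into the carotenoid pathway. PSY3 (Os09g0555500) fell (-1.68, adjusted p = 3.4e-06), as did PSY2 (Os12g0626400; -0.52, adjusted p = 0.00478), while PSY1 (Os06g0729000) rose by 1.14 (adjusted p = 4.19e-04, limma). PDS (Os03g0184000), the phytoene desaturase gene of the next step, rose by 0.66 (adjusted p = 1.48e-04, limma). Among identifiers whose names were not found, Os04g0578400 had the largest difference of the list (-1.9, adjusted p = 5.15e-05, limma). Os01g0128300 (-1.52), Os03g0125100 (-1.33) and Os10g0533500 (-1.3) also fell (adjusted p = 6.15e-07 to 7.14e-05, limma). The 6 rises of the list ranged from 0.32 to 1.14. Of 11 identifiers listed as receptors of the hormone, 7 were tested, 1 rose, 6 did not pass, and the median was -0.03. Over all tested identifiers 25.8% rose in that comparison.

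Averaged over lines, most genes listed for the response to the hormone fell, where 25.6% of all tested identifiers fell. Of 10 clade A protein phosphatases 2C, which restrain its signal, 10 fell, with a median of -1.61. PP2C68 (Os09g0325700) and PP2C30 (Os03g0268600) fell, with log2 differences of -3.83 and -3.19. Of 11 tested response factors and target genes, 10 fell and 1 did not pass, with a median of -1.78. The largest difference of the list was that of Os11g0454300 (-6.65, adjusted p = 3.3e-07, limma). The late embryogenesis abundant gene LEA3 (Os05g0542500) fell (-4.71, adjusted p = 4.52e-09), and so did the dehydrin genes RAB16B (Os11g0454200; -3.16, adjusted p = 3.19e-05) and RAB16C (Os11g0454000; -1.79, adjusted p = 0.0106, limma). By line, 8 of the 10 phosphatase genes and 6 of the 11 response genes fell in Nipponbare, against 14.8% of all tested identifiers. In Sasanishiki 9 and 6 fell (13.1% of all tested), in PL9 3 and 4 (8.24%), and in Lambayeque1 8 and 7 (12.1%). None of either list passed with a higher value in a single line. Differences above 0 that did not pass included those of Os01g0859300 in PL9 (0.69, adjusted p = 0.0967) and RAB16D in Nipponbare (0.51, adjusted p = 0.355, limma). Of the 7 tapetum markers 6 rose over the same average, where 25.8% of all tested identifiers rose, with a median of 1.57, and of the 6 carpel and outer floret markers 2 rose and 3 fell, and of the 4 stamen identity genes 2 fell and 2 did not pass.

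**Figure D4:**
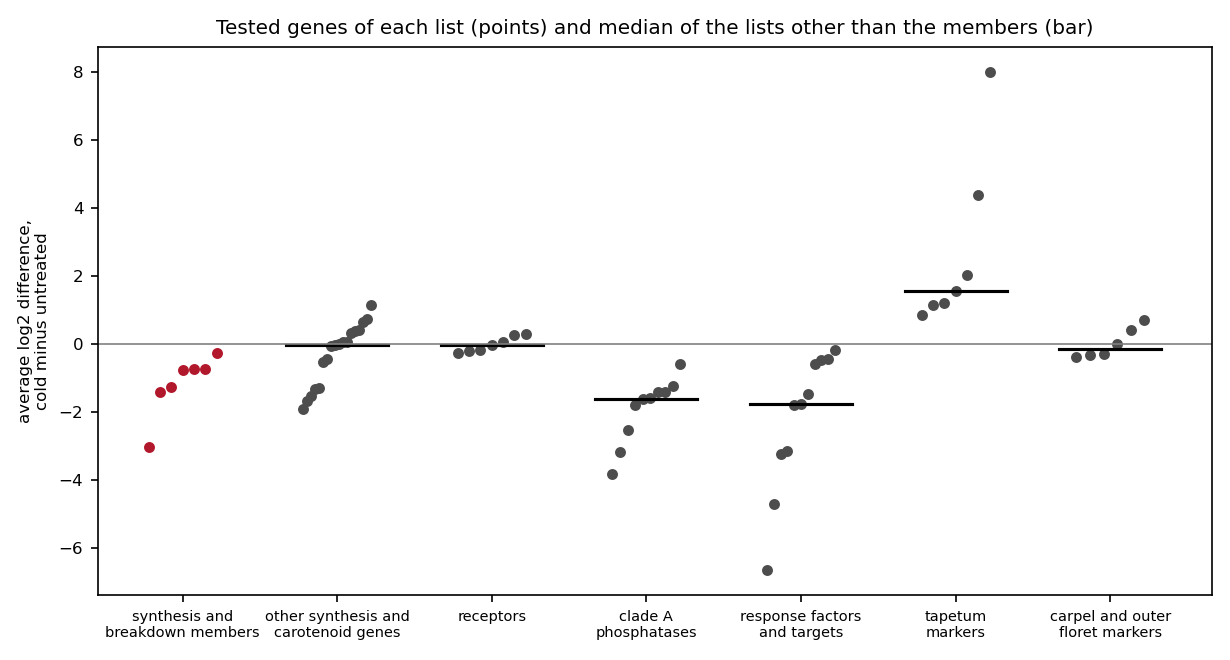
Average log2 difference over the 4 lines, cold minus untreated, for the tested genes of each list except the stamen identity genes, which are not drawn. Points are genes and bars list medians, drawn for all lists shown but the synthesis and breakdown genes. The clade A phosphatases and the response genes lie below 0 (medians -1.61 and -1.78), the other synthesis genes spread on both sides (median -0.03), and the tapetum markers lie above (median 1.57).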

How the data were processed

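Per the file headers, each deposited file holds 1 signal value per row, named TPM; per the submitters' processing notes, kallisto 0.46.2, sleuth 0.30.0 and the build IRGSP-1.0 were used, in roles not given in the sources used here. The authors' columns differ in their totals and exceed what TPM values can sum to, so the scale is not a plain TPM. Of 37910 identifiers, 5399 fill several rows, in which values of 1 library stand in the columns of others. These were read back to 1 value per library in the line order Sasanishiki, Lambayeque1, PL9, Nipponbare, which left 5399 of 5399 with 1 repeated value per library. The 27655 identifiers reaching 1 in 3 or more libraries entered the test, on log2(value + 1), with 8 group means fitted to 24 libraries by limma 3.58.1 (eBayes with trend) in R 4.3.3 and Benjamini-Hochberg adjustment within each comparison. Fold changes on that scale understate changes of low genes. The fit was tested on simulated data with independent normal noise, the same spread in every group, and changes planted only in genes well above 0. That test does not cover genes near 0 or a group of wider spread, such as cold-treated PL9. Python 3.11.15, pandas 2.3.3, numpy 2.4.6 and matplotlib 3.10.9 served for tables and figures.

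Groups and replicate numbers came from the titles. The members and lists were chosen with earlier results of these data known. All 8 members are named; genes of other lists are named by the size of their average change, here restricted, after the data were seen, to names found in RefSeq's gene table (ASM3414082v1) on the same chromosome at a relative gene order within 2%, which also held for 5 members, while the table does not hold the names NCED1, NCED4 and NCED5. Unnamed identifiers stayed in the list counts, so these include members of unchecked identity. No coordinates were printed, since the table's build differs, and no sequences were used here. Alternatives covered pseudocounts, filters, scaling, repeated rows, a replicate block, trend, single-line fits and leaving out libraries.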

Additional observations from a re-analysis of the deposited data

Results flagged for a closer look

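The response of OsABA1 to cold differed between lines in 2 of the 6 pairs, by a test of the difference itself (limma interaction contrast). It was 1.19 higher on the log2 scale in PL9 than in Nipponbare (adjusted p = 0.0439), and the response in Lambayeque1 minus that in PL9 was -1.56 (adjusted p = 0.026). PL9 minus Nipponbare was -1.06 in untreated libraries (adjusted p = 0.00193) and 0.13 in cold-treated ones (adjusted p = 0.792, limma). The first difference thus lay mostly in the untreated level. Lambayeque1 minus PL9 was 0.79 in untreated and -0.77 in cold-treated libraries. All 3 cold-treated libraries lay below the untreated range in Nipponbare and in Lambayeque1, while in PL9 1 lay below, 1 inside and 1 above it. The first call was lost without 10 of the 12 libraries, left out in turn, and the second without 7 of 12.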

How the results depend on the processing

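The averaged lower value of OsNCED3, NCED4, NCED5, OsABA1, OsABA8ox2 and OsABA8ox3 passed under every alternative in which the gene could be tested. NCED4, which entered only through untreated libraries, and NCED5 have no value with a filter of at least 5. OsABA8ox1 has none with identifiers on 1 row only. With the filter of at least 5, OsNCED3 too entered only through untreated libraries, as no cold-treated one exceeded 1.15. At the main filter its untreated libraries alone also sufficed for entry. The passes of NCED4 and OsNCED3 are therefore a description. Of the values per gene, comparison and alternative, 2869 stayed on their side of the threshold with no called change of sign, 88 lost the call, 11 gained it and 1 turned: OsABA8ox1 in cold-treated PL9 minus cold-treated Nipponbare, 0.07 with all libraries, was -1.32 (adjusted p = 0.0354) without PL9 cold library 2 and reached 0.8 without PL9 cold library 1. The counts of differences in cold response (2 of 42) were 1 with pseudocount 0.1, 1 with no filter, 1 with the replicate block and 0 without PL9 cold libraries 1 and 2 (4 at an unadjusted limma p under 0.05). Differences between cold-treated lines (7) were 4 with pseudocount 5 and 3 without PL9 cold libraries 1 and 2, and the PL9 cold count of all genes (4864) was 1975 without these. With only the libraries of the line, Sasanishiki gave 1 member and 3394 genes (3 and 7203 in the joint fit) and PL9 0 members (1 at an unadjusted limma p under 0.05) and 1432 genes, and OsABA8ox2 lost its call in Lambayeque1 (-1.57, adjusted p = 0.0831). Leaving out 1 library each gave 6 to 7 members for the average, 2 to 4 for Nipponbare, 1 to 4 for Sasanishiki, 0 to 1 for PL9 and 2 to 3 for Lambayeque1, and 0 to 4, 7 to 12 and 3 to 7 for differences in response, untreated lines and cold-treated lines. All genes called ranged from 13439 to 14569, 5349 to 7438, 4540 to 7523, 2289 to 5847 and 4572 to 5459 in the same order of cold comparisons. The cause was not tested. Replicate numbers did not pair the libraries: the deviations of same-numbered cold-treated and untreated libraries correlated at -0.4 to 0.12, above 0.1 in 2 of 12 pairs, and with the block OsABA1 in the response of PL9 minus Nipponbare (1.19, adjusted p = 0.0641), OsNCED3 in untreated PL9 minus Nipponbare (-1.73, adjusted p = 0.0513) and OsABA1 in cold-treated Lambayeque1 minus PL9 (-0.77, adjusted p = 0.0721) lost their call; no other call of a member changed. NCED values near 0 have no known depth behind them.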
